A study of Mus musculus with 6 samples.

Results

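Cytosolic ribosomal protein genes encode the proteins of the large (Rpl) and small (Rps) subunits of the ribosome that translates nuclear-encoded messages. The members were chosen by name: every probe set whose single platform symbol is Rpl or Rps followed by a number, with the stalk protein genes Rplp0 and Rplp2 and the gene Rpsa, and without the ribosomal S6 kinases, the mitochondrial ribosomal proteins and pseudogenes. This gave 45 genes on 96 of 22626 probe sets, 24 genes of the large and 21 of the small subunit. Each gene was represented by the probe set of highest mean signal over the 6 arrays. Earlier results of these data were known when the members were chosen.

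Retinal total RNA was measured on Affymetrix arrays at postnatal day 7. The 3 knockout arrays were labelled C57BL/6 knockout mice, described in the design as hemizygous males, and the 3 wildtype arrays were labelled C57BL/6 wildtype. The labels do not tell how many animals gave the RNA of an array, so every interval and p-value measures the spread between these samples, part of which may be technical. No treatment other than removal of the retina is recorded for either group. With so few arrays, precision is limited throughout.

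Ribosomal proteins are made in near-equal amounts and assembled with ribosomal RNA in the nucleolus. Most of their messages start with a short pyrimidine tract, through which the kinase mTOR tunes their translation to nutrients and growth factors. In a retina of this age, neurons that have left the cell cycle are still building axons, synapses and photoreceptor outer segments, all of which need new protein.

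The promoters shown here belong to the 3 genes whose groups did not overlap (Rps27, Rpl6 and Rpl37), to Rps27l, the close copy of Rps27, and to Rpl41 and Rpl11, which had 2 of the 4 largest negative statistics. Each is the RefSeq sequence of GRCm38.p6 from 80 bases before to 25 bases after the annotated transcript start, read 5′ to 3′ on the gene's strand, with capitals marking the ETS factor core CCGGAAG and the YY1 core AAGATGG, on either strand.
Rps27 (chr3:90213624-90213728, minus strand): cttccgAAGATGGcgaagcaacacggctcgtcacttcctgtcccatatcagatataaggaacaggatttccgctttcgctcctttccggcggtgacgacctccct
Rps27l (chr9:66946006-66946110, plus strand): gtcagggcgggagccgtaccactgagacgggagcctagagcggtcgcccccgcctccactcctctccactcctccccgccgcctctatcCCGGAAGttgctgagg
Rpl6 (chr5:121204421-121204525, plus strand): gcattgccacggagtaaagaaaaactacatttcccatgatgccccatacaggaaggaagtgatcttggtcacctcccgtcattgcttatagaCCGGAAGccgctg
Rpl37 (chr15:5116533-5116637, plus strand): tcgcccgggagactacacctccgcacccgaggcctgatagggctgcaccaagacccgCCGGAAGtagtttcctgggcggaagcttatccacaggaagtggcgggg
Rpl41 (chr10:128549144-128549248, minus strand): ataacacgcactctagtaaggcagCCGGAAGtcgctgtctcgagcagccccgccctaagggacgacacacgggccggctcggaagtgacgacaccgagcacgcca
Rpl11 (chr4:136053369-136053473, minus strand): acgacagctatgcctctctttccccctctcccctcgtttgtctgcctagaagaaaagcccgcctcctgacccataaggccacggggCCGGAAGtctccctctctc

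Of the 45 genes, 39 had a promoter in the RefSeq table, with 47 start sites between them, each a window of 250 bases before to 50 after the start. The ETS core CCGGAAG, or CTTCCGG on the other strand, stood in 20 of the 47 windows (42.6%), against 8.86% of all 32851 windows. The promoters shown above hold it more often than that, in all but Rps27. Rps27l has 2 annotated starts, and the window of the start not shown lacks the core. So do the windows of the 3 starts of Rps19, also not shown. The YY1 core AAGATGG, or CCATCTT, stood in 6 of 47 (12.8%), against 6.34% of all windows. A run of at least 8 bases of C or T within 15 bases of the start was found in 18 of 47 (38.3%), against 12.0% of all windows. None of the 47 held the TATA box TATAAA between 45 and 11 bases before the start, where 2.22% of all windows did. These matches describe letters in a window and not bound sites. The median log2 fold change was -0.03 over 19 tested genes with the ETS core and -0.06 over 17 without it, and -0.05 over 18 tested genes with the pyrimidine run and -0.04 over 18 without it.

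No ribosomal protein gene passed the test between knockout and wildtype retinae at this age, and nearly all differences were small: the median log2 fold change of the tested genes was -0.05. Of the 45 genes, 42 had a mean signal above the filter on low signal and were tested with limma across all 13575 probe sets that passed it. In limma, 0 of the 42 had a Benjamini-Hochberg adjusted p under 0.05 (the smallest was 0.999), against 0.0147% of all tested probe sets. At an unadjusted p under 0.05 limma called 0 of the 42, against 3.82% of all tested probe sets, and the ordinary equal-variance statistic called 1 of 42, Rpl6. Under some other settings limma called more members at that unadjusted threshold. With array weights it called 6 of 42, against 6.94% of all tested probe sets. It called 4 of 43 both without knockout array 2, against 7.75%, and without wildtype array 3, against 4.48%. Without wildtype array 3 and knockout array 1, a setting chosen after seeing the data, it called 8 of 41, against 9.12%. In the remaining settings 0 to 2 members were called. The 3 untested genes were Rpl12, with a mean signal just under the limit of 62.4 (63.5 ± 13.6 in knockout and 57.7 ± 9.73 in wildtype, SD, n = 3), and the copies Rpl39l and Rpl3l. Just inside the limit was Rpl14, at 73.3 ± 23.7 in knockout and 72.9 ± 15.6 in wildtype.

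The lower and upper quartiles of the 42 log2 fold changes, knockout minus wildtype on the scale of log2(signal + 19.1), were -0.12 and 0.02, where those of all tested probe sets were -0.14 and 0.12. Only Rpl27a, whose knockout mean of 54.5 lay under the filter limit, differed by more than 1.5-fold, against 3.79% of all tested probe sets. Of the 8159 tested genes with a single symbol, taken at 1 probe set each as the members were, 104 did. The quartiles of those genes were -0.10 and 0.14. The spread between arrays of the same group was also lower than over all tested probe sets. The median residual SD was 0.17 on the log2 scale for the 42 genes and 0.23 for all tested probe sets. It was 0.22 for the single-symbol genes at 1 probe set each. Of the 42 genes, 32 had a mean signal above 2000, and the spread was not compared at equal signal.

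**Figure D1:**
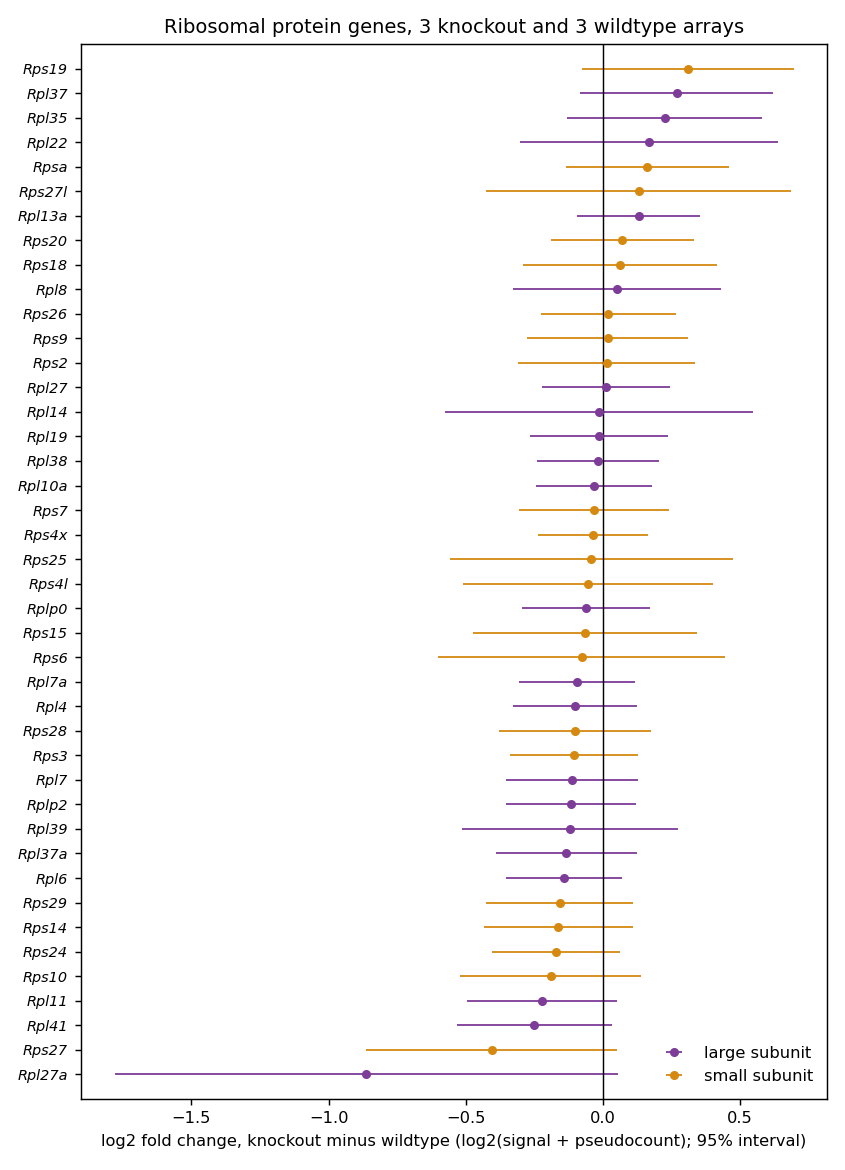
Log2 fold change (knockout minus wildtype, on the scale of log2 of signal plus pseudocount) of the 42 tested ribosomal protein genes, ordered from highest to lowest and coloured by subunit. Points are limma estimates and bars their 95% intervals (3 knockout and 3 wildtype arrays). All 42 intervals include 0, and the estimates run from 0.31 for Rps19 to -0.86 for Rpl27a.

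More members had negative than positive values, at 28 against 14, where 50.1% of all tested probe sets were positive. Their median log2 fold change of -0.05 stood beside 0.00031 for all tested probe sets. Among the 8159 tested genes with a single symbol, at 1 probe set each, 55.2% were positive, with a median of 0.02. The split changed with the way the arrays were brought to a common level: with quantile normalization 23 were positive and 19 negative (median 0.02, and 0.02 for all tested probe sets), and with median scaling 26 were positive and 16 negative (median 0.04, against 0.09 for all). With array weights, which count the arrays that stand apart less, 8 were positive and 34 negative (median -0.09, against -0.01 for all), and without wildtype array 3 the split was 11 positive and 32 negative of 43 tested genes (median -0.08). Among the 32 members with a mean signal above 2000, 11 were positive (34.4%) with a median of -0.05, and among the 10 members at or under it 3 were positive with a median of -0.05. Among 600 tested probe sets of other genes above that signal, 212 were positive (35.3%) with a median of -0.04. In the deposited values the brightest probe set of each array was 31.9, 30.4 and 33.7 times the array's trimmed mean in the knockout arrays, and 39.7, 49.7 and 33.2 times in the wildtype arrays.

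The choice of probe set also moved the split. Over all 78 tested probe sets of the members, 40 had positive and 38 negative log2 fold changes. When all tested probe sets of a gene were averaged, 16 genes were positive and 26 negative, with a median of -0.03. Of the 96 probe sets, 26 carry identifiers ending in _a_at. Another 40 end in _x_at and 2 in _s_at, which can hybridise with related transcripts, and ribosomal protein genes have many processed pseudogenes. With plain identifiers alone, which have none of these endings, 3 of 14 tested genes were positive and 11 negative (median -0.06). RefSeq lists 82 protein-coding symbols that match the naming rule. A wider set that admitted probe sets annotated to a single ribosomal protein gene beside pseudogene entries held 68 tested genes, with 27 positive and 41 negative values (median -0.03) and 0 past the threshold.

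In the large subunit 6 of 21 tested genes were positive (median -0.06), and in the small subunit 8 of 21 (median -0.04). The groups did not overlap for 3 of the 42 genes (7.1%), against 9.1% of all tested probe sets. Higher in all knockout arrays was 1 gene, Rpl37, against 4.05% of tested probe sets in that direction, and lower in all of them were 2 genes, Rpl6 and Rps27, against 5.05%. These counts changed with the arrays used. Without wildtype array 3, 13 of 43 tested genes were lower (13.6% of all tested probe sets) and 2 higher (9.54%). Leaving out knockout array 1 as well gave 16 of 41 lower (23.5%) and 3 higher (19%). Without wildtype array 2 instead, 2 of 42 were lower (7.33%) and 2 higher (6.5%).

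Rps27 encodes a zinc finger protein of the small subunit. Its scaled signal was 101, 86.0 and 90.0 in knockout arrays 1 to 3 and 111, 168 and 113 in wildtype arrays 1 to 3. All 3 knockout values lay below the lowest wildtype value, and wildtype array 2 was well above the rest. The log2 fold change was -0.41 ± 0.20 (SE; 95% interval -0.86 to 0.05; adjusted p = 0.999 in limma), and it was -0.23 without wildtype array 2. Rps27l, a copy of Rps27 known as a target of p53, had 1635, 753 and 1268 in the knockout arrays and 1156, 1049 and 981 in the wildtype arrays. The knockout values spanned the whole wildtype range, with knockout array 1 highest. Its log2 fold change was 0.13 ± 0.25 (SE), -0.11 without knockout array 1 and 0.44 without knockout array 2. Its other probe sets had 0.24 and 0.15.

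Rpl6, a protein of the solvent side of the large subunit, gave 3673, 3686 and 3834 in the knockout arrays and 4105, 3959 and 4294 in the wildtype arrays, so the groups were separate with a narrow gap. The log2 fold change was -0.14 ± 0.09 (SE; 95% interval -0.35 to 0.07; adjusted p = 0.999 in limma). With 1 array left out it ranged from -0.17 to -0.11.

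Rpl37, which binds zinc in the large subunit, had 799, 759 and 769 in the knockout arrays and 647, 545 and 746 in the wildtype arrays. The knockout arrays were tightly grouped, and wildtype array 3 came close to them. The log2 fold change was 0.27 ± 0.16 (SE; adjusted p = 0.999 in limma), with 0.15 when wildtype array 2 was left out. Rpl37a, a different zinc-binding protein of the large subunit, had 5316, 4309 and 4987 against 5522, 5710.0 and 4793, groups that overlapped, with a log2 fold change of -0.13 ± 0.11 (SE).

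A dim second probe set of Rpl37a had the largest difference of the 78. It gave 65.1, 98.3 and 80.8 in the knockout arrays and 241, 427 and 109 in the wildtype arrays, with wildtype array 3 near the knockout values. Its log2 difference was -1.30 ± 0.39 (SE; limma adjusted p = 0.999), while the third probe set of the gene had -0.02. Of the 78 tested probe sets, 3 had an unadjusted p under 0.05 in limma: 3 with lower signal in the knockout, where 2.53% of all tested probe sets passed in that direction, and 0 with higher signal, where 1.28% did. The other two belonged to Rpl41 and Rpl7.

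Rpl41 encodes the smallest protein of the ribosome. Its brightest probe set had 7147, 5986 and 7073 in the knockout arrays and 8318, 9104 and 6732 in the wildtype arrays. Wildtype array 3 lay below 2 of the knockout arrays, so the groups overlapped. The log2 fold change was -0.25 ± 0.13 (SE; adjusted p = 0.999 in limma), -0.16 without wildtype array 2 and -0.07 with quantile normalization. A second probe set had 3461, 3563 and 3629 in the knockout arrays against 4805, 4453 and 4056 in the wildtype arrays. There the groups were separate, with a log2 fold change of -0.32 ± 0.10 (SE; limma adjusted p = 0.999).

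**Figure D2:**
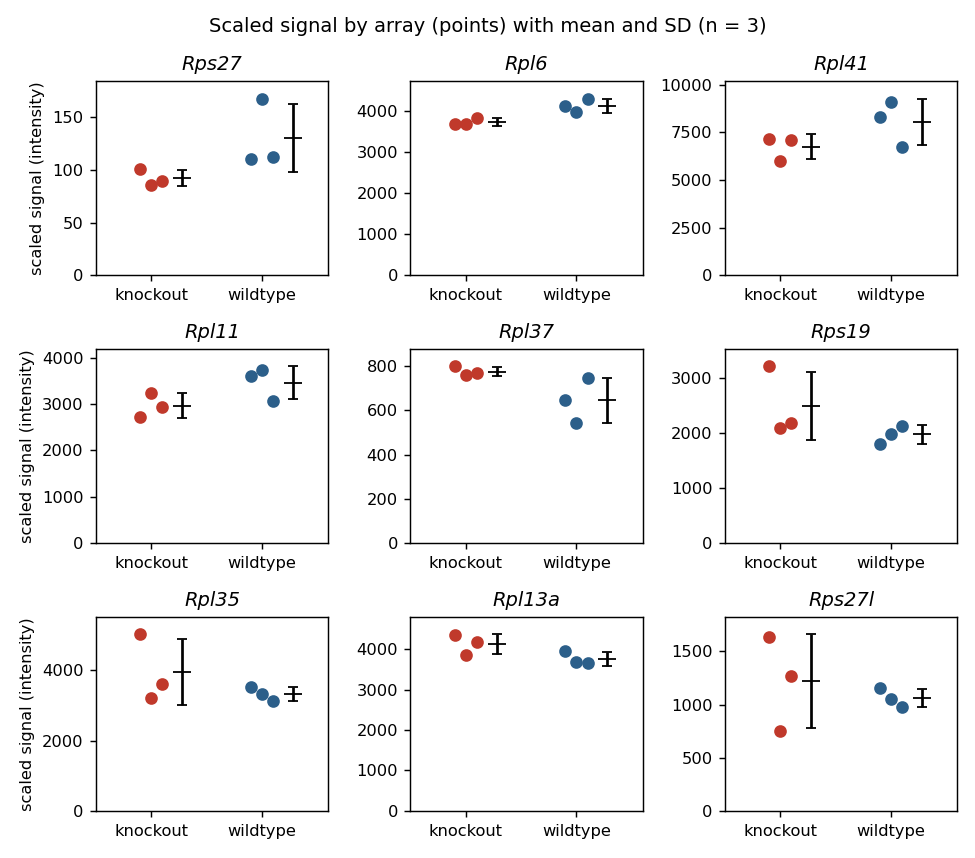
Scaled signal (intensity, axes from 0) of 9 ribosomal protein genes. Points are arrays 1 to 3, from left to right, of the knockout (red) and wildtype (blue) group, and bars show mean and SD (n = 3). Rps27, Rpl6 and Rpl37 show separate groups, and in Rps19, Rpl35 and Rps27l knockout array 1 lies above the other arrays.

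Rpl11 forms a particle with 5S RNA and Rpl5 that can bind the p53 regulator Mdm2 when ribosome assembly is disturbed. It had 2711, 3242 and 2933 in the knockout arrays and 3596, 3725 and 3066 in the wildtype arrays. Of the knockout arrays 2 lay below all wildtype values, and the third lay above wildtype array 3. Rpl11 thus had a log2 fold change of -0.22 ± 0.12 (SE; limma adjusted p = 0.999). Rps7, another Mdm2-binding protein, had 5045, 5447 and 5324 against 5853, 5972 and 4492, with a log2 fold change of -0.03 ± 0.12 (SE).

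Rps19, needed for maturation of 18S ribosomal RNA and mutated in human Diamond-Blackfan anaemia, had the highest log2 fold change of the members. It had 3211, 2085 and 2187 in the knockout arrays against 1806, 1983 and 2138 in the wildtype arrays. Knockout array 1 was far above all others, and the other knockout arrays lay inside the wildtype range or just above it. The log2 fold change was 0.31 ± 0.17 (SE; 95% interval -0.08 to 0.69; adjusted p = 0.999 in limma), and it was 0.11 without knockout array 1.

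Rpl35, which sits near the exit of the peptide tunnel, had 5018, 3215 and 3612 in the knockout arrays and 3509, 3326 and 3122 in the wildtype arrays. Only knockout array 1 stood well above the rest, and the log2 fold change of 0.22 ± 0.16 (SE) was 0.04 without it and 0.36 without knockout array 2. Rpl13a, which in human cells also leaves the ribosome to silence inflammatory messages, had 4346, 3860.3 and 4168 in the knockout arrays and 3960.5, 3677 and 3660.5 in the wildtype arrays. The groups overlapped through knockout array 2, and the log2 fold change was 0.13 ± 0.10 (SE). Rpsa, a small subunit protein also known as a laminin receptor, had 4584, 3442 and 3644 against 3819, 3249 and 3301, with a log2 fold change of 0.16 ± 0.13 (SE) that was 0.04 without knockout array 1 and 0.24 without knockout array 2.

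Rpl22, an RNA-binding protein of the large subunit, had 866, 1456 and 1408 in the knockout arrays and 1047, 956 and 1246 in the wildtype arrays. Knockout array 1 was the lowest of the 6 and the other knockout arrays were the highest. Its log2 fold change was 0.17 ± 0.21 (SE). It was 0.41 without knockout array 1 (limma adjusted p = 0.996), 0.04 without knockout array 2, 0.06 without knockout array 3, 0.08 without wildtype array 2 and 0.27 without wildtype array 3, and its second probe set had 0.02. Rpl22l1, its copy outside the naming rule, had 1205, 1433 and 1078 against 864, 1107 and 1759, with a log2 fold change of 0.05 ± 0.24 (SE).

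Rpl27a had the most negative log2 fold change, on a dim and scattered probe set. It gave 43.9, 105 and 14.3 in the knockout arrays and 80.5, 113 and 101 in the wildtype arrays, so knockout array 2 lay inside the wildtype range. The log2 fold change was -0.86 ± 0.41 (SE; 95% interval -1.78 to 0.05; adjusted p = 0.999 in limma). Without knockout array 3 it was -0.39, and without knockout array 2 it was -1.34 (limma adjusted p = 0.53).

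The stalk proteins recruit elongation factors to the large subunit. Rplp0, the base of the stalk and a frequent reference gene, had 4176, 5008 and 4278 in the knockout arrays and 4664, 4536 and 4811 in the wildtype arrays, with a log2 fold change of -0.06 ± 0.10 (SE). Rplp2 had -0.12 ± 0.11. The 95% interval for Rplp0, -0.29 to 0.17, bounds the difference and does not show equality.

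Rps6, the small subunit protein phosphorylated by S6 kinases after mTOR activation, had 204, 150.4 and 143 in the knockout arrays and 149, 245 and 143 in the wildtype arrays. Knockout array 1 and wildtype array 2 were the high arrays, and the log2 fold change was -0.08 ± 0.23 (SE). Rps4x, on the X chromosome, had 4745, 4896 and 5103 against 4894, 5250.1 and 4974 (log2 fold change -0.04 ± 0.09, SE), the smallest standard error of the 42. Its related gene Rps4l had -0.05 ± 0.20. Rpl39, also X-linked and lying at the peptide tunnel, had 182, 192 and 201 against 229, 235 and 172 (log2 fold change -0.12 ± 0.18, SE). Its copy Rpl39l, known from germ cells, had 9.68 at most on any array, and Rpl3l, the striated muscle copy of Rpl3, had 35.9 at most. The probe sets of Rps6, Rpl39 and Rps27 were far dimmer than those of most members, whose mean signal was above 2000.

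Apart from Rps10 and Rps24, described below, the other tested members had log2 fold changes between -0.16 and 0.07. They included Rpl4, which lines the peptide tunnel (-0.10), Rps3, at the messenger entry (-0.11), Rps14 (-0.16), Rps29 (-0.16), Rps28 (-0.10), Rps26 (0.02), Rpl8, near the catalytic centre (0.05), Rpl38, which in mouse embryos favours translation of Hox messages (-0.02), and Rps20 (0.07).

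Probe sets of the same gene often disagreed in sign. Of 18 genes with at least 2 tested probe sets, 8 had the same sign throughout and 10 had both signs. Those with the same sign and positive values were Rpl22, Rpl27, Rps18, Rps27l and Rps9, and those with negative values were Rpl37a, Rpl41 and Rps15. Rps10, at the messenger entry side of the small subunit, had 4254, 4252 and 3164 in the knockout arrays and 3839.6, 4978 and 4461 in the wildtype arrays on its brightest probe set. Those groups overlapped, with knockout array 3 lowest, and the log2 fold change was -0.19 on this probe set (-0.05 without knockout array 3) and 0.03 to 0.27 on the other 4.

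Rps24, which takes part in early processing of 18S ribosomal RNA, had 4045, 4275 and 3804 in the knockout arrays and 4633, 4884 and 4167 in the wildtype arrays. Only knockout array 2 reached into the wildtype range, and the log2 fold change was -0.17 ± 0.10 (SE), while the other 3 probe sets had 0.14, -0.07 and 0.23. Rpl7, a large subunit protein, had 3104, 3212 and 2983 in the knockout arrays and 3242, 3797 and 4369 in the wildtype arrays on its second probe set. These groups were separate by a narrow gap (log2 fold change -0.28 ± 0.13, SE; limma adjusted p = 0.999), and the other probe sets of Rpl7 had -0.11 and 0.02. Rps18, which sits in the head of the small subunit, had 4641, 4156 and 3958 in the knockout arrays and 3565, 3581 and 3889 in the wildtype arrays on a probe set of lower mean signal. There every knockout array was above every wildtype array (log2 fold change 0.21 ± 0.10, SE), whereas the brightest probe set of Rps18 had 0.06 with overlapping groups. Rps9, which in yeast helps to keep decoding accurate, had 0.02 on its brightest probe set and 0.37 ± 0.21 (SE) on the other. Over the 78 tested probe sets the groups did not overlap for 3 higher in the knockout (Rpl13a, Rpl37 and Rps18), against 4.05% of all tested probe sets, and 5 lower (Rpl37a, Rpl41, Rpl6, Rpl7 and Rps27), against 5.05%, so both shares were near those of all probe sets.

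**Figure D3:**
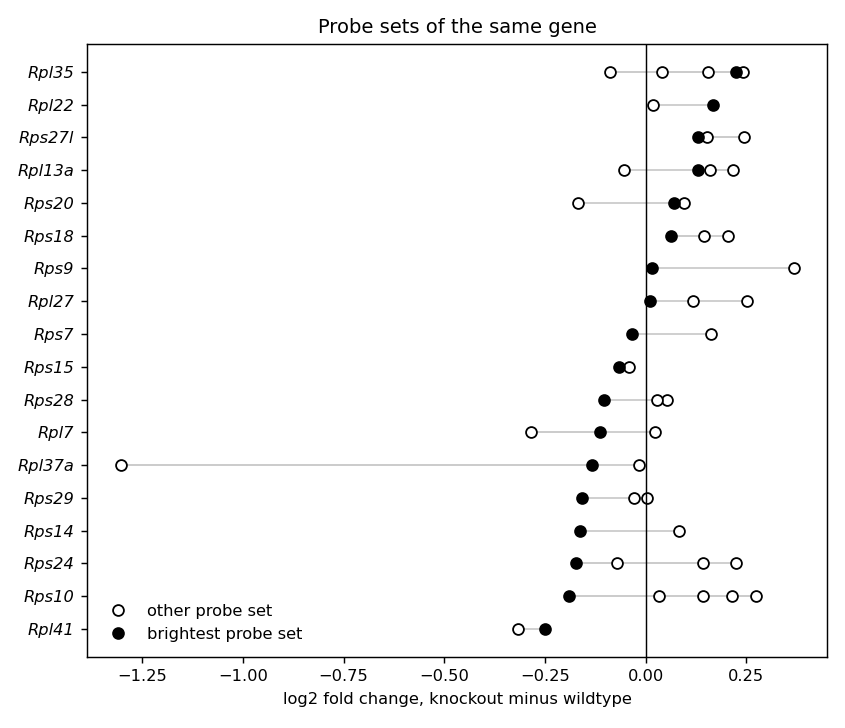
Log2 fold change (knockout minus wildtype) of every tested probe set of the 18 genes with at least 2. Filled circles are the probe set of highest mean signal, open circles the others, and a grey line joins probe sets of a gene. In 10 of the 18 genes the circles lie on both sides of 0, and a dim Rpl37a probe set lies at -1.30.

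The members shifted together between arrays of the same group by more than between groups. Relative to each gene's mean over the 6 arrays, the median of the 42 genes was 0.05, -0.08 and -0.02 in knockout arrays 1 to 3 and 0.03, 0.12 and -0.06 in wildtype arrays 1 to 3, while the same medians for all tested probe sets lay between -0.01 and 0.02. In wildtype array 2, 30 of 42 genes were above their own mean, and 21 had their highest value there. Knockout array 1 held 28 genes above their mean and 13 of the highest values, and knockout array 2 held 10 above their mean and 12 of the lowest values. The 2 arrays in which the members were highest were also those with the highest mean 18S ribosomal RNA control signal. The mean scaled signal of the 18S probe sets was 273, 63.6 and 56.1 in knockout arrays 1 to 3 and 60.3, 983 and 59.1 in wildtype arrays 1 to 3. On the 3′ probe set of 18S alone the values were 118, 83.3 and 76.0 in the knockout arrays and 115, 226 and 90.6 in the wildtype arrays. There knockout array 1 was close to wildtype array 1. Without knockout array 1 and wildtype array 2 the median log2 fold change of the members was -0.07, with 14 positive and 28 negative values. The part of the 18S signal in these shifts was not tested.

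**Figure D4:**
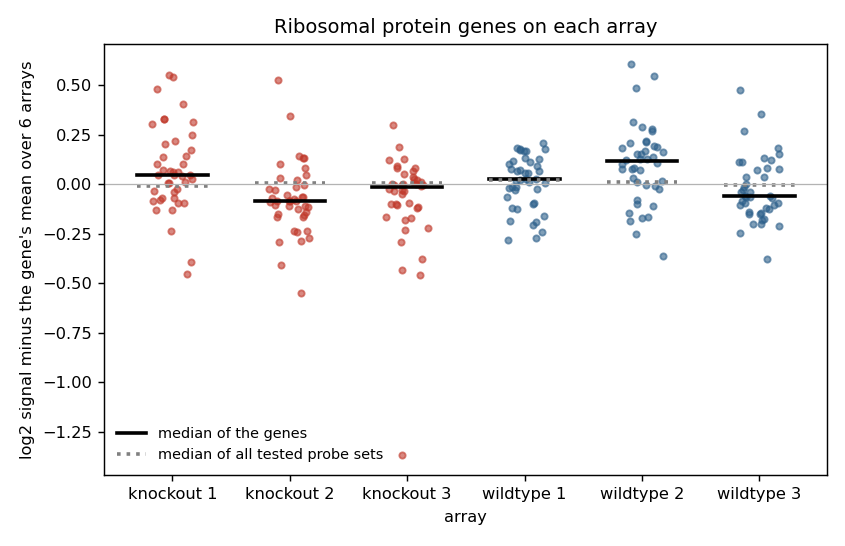
Log2 signal of the 42 tested ribosomal protein genes on each array, minus the gene's mean over the 6 arrays, for 3 knockout (red) and 3 wildtype (blue) arrays. Points are genes, black lines their median and dotted grey lines the median of all tested probe sets. The medians run from -0.08 in knockout array 2 to 0.12 in wildtype array 2, and the groups overlap.

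Measures of the whole arrays vary alongside these values. Across tested probe sets, the log2 signal of knockout array 1 correlated with that of the other arrays at 0.914 to 0.936, and each of the remaining 5 reached 0.972 to 0.979 with its best match. The trimmed mean of the deposited signal was 304, 277 and 263 in the knockout arrays and 215, 171 and 312 in the wildtype arrays. For Actb, the signal of the 3′ control probe set over the 5′ one, a sign of RNA integrity, was 2.17, 1.69 and 1.90 in the knockout arrays and 1.64, 1.44 and 1.59 in the wildtype arrays. The same ratio for Gapdh was 1.18, 0.884 and 1.16 in knockout and 0.982, 0.824 and 0.880 in wildtype, and its groups overlapped. The part of RNA integrity in the members' differences was not tested. All 14 rod marker genes passed the filter (4 positive, median log2 fold change -0.12). All 7 tested lens genes were positive (median log2 fold change 0.45), but they varied within each group. The median deviation from the genes' means was 0.38, -0.49 and 1.05 in the knockout arrays and -1.16, -1.17 and 1.33 in the wildtype arrays. Among 8 tested microglia genes 7 were positive, with array medians of 0.55, -0.13 and -0.02 in the knockout and -0.19, 0.05 and -0.18 in the wildtype. Values for pigment cells (3 of 7 positive), skeletal muscle (0 of 4) and blood cells (0 of 1) did not pass the test either. In whole retina, fewer cells of a type and less RNA per cell cannot be told apart.

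Genes that work with the ribosome were read the same way, and 0 of each list passed the limma test. Elongation factors and other translation genes were positive in 17 of 36 cases (median -0.02). Eef1a1, the factor that brings aminoacyl-tRNA to the ribosome, had 7120, 7719 and 8457 in the knockout arrays and 9564, 10692 and 8529.9 in the wildtype arrays, groups that did not overlap (log2 fold change -0.30 ± 0.11, SE; limma adjusted p = 0.999). Eif3c had 0.30 and Eif4e, the cap-binding factor, -0.28. Ribosome assembly factors were positive in 24 of 51 cases (median -0.0010), with nucleolin (Ncl) at -0.29, Rsl1d1 at -0.33, Npm1 at 0.26 and Gar1 at 0.36. RNA polymerase I and its factors were positive in 6 of 11 cases (median 0.01), with Polr1d at 0.24 and Ttf1 at -0.30. Genes that control ribosomal protein messages through mTOR and Myc were positive in 11 of 17 cases (median 0.02). Among them, Mycn had 0.28, the translation repressor Eif4ebp1 0.43 and the kinase Pdpk1 -0.22. The probe set of Eif4ebp1 was dim, with a knockout mean of 76.8 and a wildtype mean of 53.2, which lay under the filter limit. Of the ribosomal proteins outside the naming rule, Fau had 0.02 and Rpl7l1 -0.14.

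Mitochondrial ribosomal proteins, made from nuclear genes and imported to translate the mitochondrial genome, had positive values in 53 of 73 genes, with a median of 0.10. The difference from the cytosolic genes was not tested. Mrps21 (0.49), Mrpl52 (0.56) and Mrpl50 (-0.72) had unadjusted p under 0.05 in limma, 3 of 73 genes against 3.82% of all tested probe sets, and 0 passed after adjustment. The array medians were 0.19, -0.03 and -0.02 in knockout arrays 1 to 3 and -0.07, 0.01 and -0.05 in the wildtype arrays, with 64 of 73 genes above their mean in knockout array 1. Without that array 9 of 42 cytosolic genes were positive, with a median of -0.10, and 34 of 73 mitochondrial genes, with a median of -0.02.

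**Figure D5:**
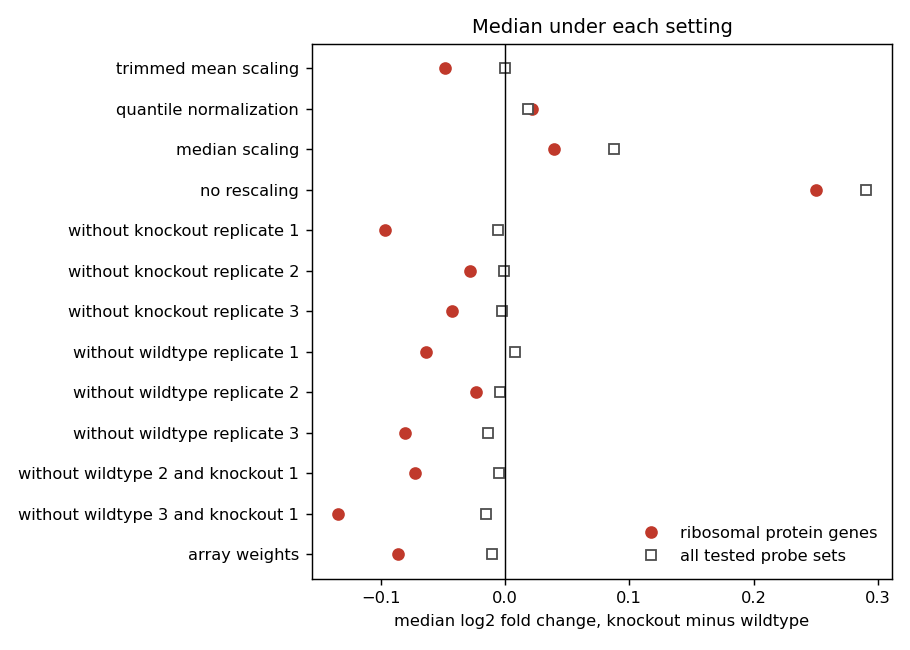
Median log2 fold change (knockout minus wildtype) of the tested ribosomal protein genes (filled circles) and of all tested probe sets (open squares) under each scaling of the arrays, with arrays left out, and with array weights. The member median is -0.05 with trimmed mean scaling and 0.02 with quantile normalization, where it meets the median of all probe sets.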

How the data were processed

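The authors deposited linear probe set intensity values for 6 Affymetrix arrays, which the submitters' processing notes credit to MAS5; version, scaling target and detection calls are not given in the sources used here. Of 22690 probe sets, 64 controls were left out of the fit. Arrays were scaled to a common mean after trimming 2% at each end, 19.1 (the 20th percentile) was added before log2, which understates the change of dim probe sets, and probe sets with a mean above the 40th percentile were tested. The difference, knockout minus wildtype, came from limma 3.58.1 under R 4.3.3 (lmFit, eBayes with intensity trend, Benjamini-Hochberg over 13575 probe sets), and the fit was tested on simulated data. Every p-value and interval comes from that fit unless another is named. Groups and replicate numbers follow the labels. The members and lists were chosen with earlier results of these data known. Named members were the 8 largest statistics per direction, those with separate groups and at least 1.2-fold change, those with at least 3 probe sets and related copies; other members were named by role after their values were seen. Lists were named by their largest statistics. Symbols come from the platform annotation. The targeted gene is not reported here. Same-numbered arrays deviated together at r = 0.18, -0.03 and 0.08, so the numbers were not taken as pairs. Alternatives covered scaling, pseudocount, filter, statistic, weights, probe set choice, a replicate block and arrays left out.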

Additional observations from a re-analysis of the deposited data

How the results depend on the processing

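The count of ribosomal protein genes past the threshold was 0 in every setting run, with the smallest adjusted p between 0.52 and 1.00. The replicate block fit also gave 0 genes (smallest limma adjusted p = 0.76) and 2 probe sets in all. The count over all probe sets, 2, fell to 0 under the ordinary statistic and to 1 when the filter was dropped, and reached 10 when arrays were not rescaled. Leaving out wildtype 2 with knockout 1 gave 4, and leaving out wildtype 3 with knockout 1 gave 1. Leaving out single arrays gave 0 to 4. The median log2 fold change of the members was 0.039 with median scaling, 0.25 without rescaling (0.29 for all probe sets) and -0.13 without wildtype 3 and knockout 1, the least alike pair of arrays; with 1 array left out it ranged from -0.10 (without knockout array 1) to -0.02 (without wildtype array 2). The cause was not tested, apart from fewer arrays or probe sets. The settings without wildtype 3 and knockout 1 and with the wider set were chosen after seeing the data.

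Among the named members, signs turned in 38 of 531 cases. Without rescaling, which moved the median of all probe sets to 0.29, positive values were given by Rpl11 (0.094), Rpl37a (0.18), Rpl39 (0.17), Rpl41 (0.067), Rpl6 (0.17), Rpl7 (0.20), Rps10 (0.13), Rps14 (0.15), Rps24 (0.14), Rps28 (0.21), Rps29 (0.16) and Rps4l (0.25). Rps29 was 0.015 with quantile normalization and Rps4l 0.037 with median scaling. With array weights Rpl27 (-0.022), Rps18 (-0.080) and Rps27l (-0.017) turned. Averaging probe sets turned Rps10 (0.095), Rps20 (-0.0010) and Rps24 (0.032), and plain identifiers turned Rps20 (-0.17). With 1 array left out the ranges were -0.062 to 0.050 for Rpl27, -0.11 to 0.17 for Rps18, -0.11 to 0.44 for Rps27l, -0.20 to 0.0060 for Rps28, -0.20 to 0.11 for Rps4l and -0.10 to 0.11 for Rps9. Without wildtype 2 and knockout 1, Rps27l (-0.12) and Rpsa (-0.0037) turned. Without wildtype 3 and knockout 1, Rpl27 (-0.067), Rpl35 (-0.0037), Rps18 (-0.20), Rps27l (-0.17) and Rps4l (0.063) turned. No detection calls were used, so how far dim probe sets such as those of Rpl27a, Rpl14 and Rps27 lie above background is unknown.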
